A study of Mus musculus with 6 samples.

Results

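The CC chemokine ligands are small secreted proteins, named for a pair of adjacent cysteines, that draw leukocytes along a gradient. Here 9 of them were followed: Ccl2, Ccl3, Ccl4, Ccl5, Ccl6, Ccl7, Ccl8, Ccl9 and Ccl12. They were taken by gene symbol from the 21965 genes of the count table, and all 9 were among the 14792 genes tested. The mRNA of Ccl5 stood 5.75-fold higher in endothelial progenitor cells (EPCs) from mice exposed to concentrated ambient PM2.5 (CAP) than from mice exposed to filtered air. Ccl2 stood 1.93-fold and Ccl7 2.13-fold higher, Ccl6 and Ccl9 were lower, and Ccl8 was lower with overlapping groups. Ccl3, Ccl4 and Ccl12 differed by less than the spread between libraries. None of the 9 passed an adjusted p of 0.05 in edgeR, the main test, in which 0% of all genes did, nor in limma-voom, and Ccl5 passed it in DESeq2.

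EPCs were grown from the bone marrow of young adult male C57BL/6 mice (C57BL/6J in the study's methods), 3 of which had breathed HEPA-filtered air and 3 CAP at an average of 67 μg/m3. Both groups were exposed for 6 h per day on 30 days, carried no other treatment or allele, and were killed right after the last exposure. Each group was housed in 1 cage, whose effect cannot be told apart from that of the exposure. The study names 3 biological replicates per group. Each library was taken here as the culture of 1 mouse, which the study's methods do not state. The labels give 12 days of culture before RNA was taken, and the study's methods a shorter time. Poly-A mRNA was sequenced to between 28713206 and 30446171 counts per library. The 7 endothelial marker genes summed to 1225 to 3437 normalized counts in the air libraries and 1111 to 1473 in the CAP libraries, against 501100 to 545400 and 390300 to 449000 for 10 macrophage genes. All of these marker genes were detected, and macrophage genes were by far more abundant than endothelial ones in cultures labelled as endothelial progenitors. The lysozyme gene Lyz2 made up most of the macrophage sum. The other 9 macrophage genes summed to 139600 to 167000 in air and 100900 to 151000 in CAP. The 8 stromal marker genes summed to 129000 to 201400 in air and 52680 to 131300 in CAP. Among the ligands CAP replicate 2 stood out: it held the highest or the lowest value of 8 of the 9, Ccl5 being the exception. It also had the lowest stromal marker sum, at 52680 normalized counts. Results are therefore also given without CAP replicate 2. For how many of all genes it was an extreme library was not counted. Over all genes, another library mattered more: DESeq2 called 24 genes with all 6 libraries, 51 without CAP replicate 2 and 799 without CAP replicate 3.

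CC ligands act through G protein-coupled receptors of the Ccr family on monocytes, macrophages, lymphocytes and other leukocytes. Ccl2, Ccl7, Ccl8 and Ccl12 form the monocyte chemoattractant protein group, of which Ccl2 is the main signal that calls monocytes out of the bone marrow through Ccr2. Ccl3, Ccl4 and Ccl5 are inflammatory ligands made by macrophages and lymphocytes, while Ccl6 and Ccl9 are ligands of Ccr1 found in rodents and made constitutively by myeloid cells. Their transcription is induced by NF-kB, AP-1 and, for several members, interferon response factors. The mRNAs of some members carry AU-rich elements that speed decay, which were not examined here.

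All 9 genes lie on chromosome 11 in GRCm38 coordinates. Ccl2 (82035571 to 82037453), Ccl7 (82045712 to 82047525), Ccl12 (82101845 to 82103400) and Ccl8 (82115185 to 82116799) sit next to each other on the plus strand. After a gap of 1408978 bases follow Ccl5 (83525778 to 83530518), Ccl9 (83572919 to 83578636), Ccl6 (83587882 to 83593087) and Ccl3 (83647844 to 83649355) on the minus strand and Ccl4 (83662584 to 83664683) on the plus strand. Gm17268 overlaps Ccl2 on the other strand without sharing an exon.

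RefSeq promoter windows of GRCm38.p6, from 250 bases before to 50 bases after the start site, were at hand for 5 of the 9 genes: Ccl3, Ccl6, Ccl8, Ccl9 and Ccl12. Neighbouring genes of 1 kind were compared, and runs of at least 8 identical bases in their alignment are in capitals. Ccl6 and Ccl9 are shown since they are neighbours with lower values in all 3 CAP libraries. They share 4 runs, the longest of 13 bases, in the windows at chr11:83593038-83593337 and chr11:83578587-83578886, both on the minus strand. In Ccl6 only the last run lies after the start site, whereas in Ccl9 only the first lies before it. The runs are thus not at the same distance from the start in these genes.
Ccl6: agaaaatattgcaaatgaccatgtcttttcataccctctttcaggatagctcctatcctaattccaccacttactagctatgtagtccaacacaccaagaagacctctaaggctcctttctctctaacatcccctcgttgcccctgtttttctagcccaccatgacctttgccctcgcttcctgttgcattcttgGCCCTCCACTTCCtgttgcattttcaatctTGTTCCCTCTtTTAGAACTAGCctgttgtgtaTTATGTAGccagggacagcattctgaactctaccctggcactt
Ccl9: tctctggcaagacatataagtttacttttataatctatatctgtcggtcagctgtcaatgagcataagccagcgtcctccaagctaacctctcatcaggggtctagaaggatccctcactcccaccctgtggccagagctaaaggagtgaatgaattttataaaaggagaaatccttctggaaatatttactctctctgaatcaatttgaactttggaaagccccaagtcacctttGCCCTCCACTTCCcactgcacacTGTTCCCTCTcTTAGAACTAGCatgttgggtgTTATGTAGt
Ccl8 and Ccl12 are shown since they are neighbours whose values differed between the groups by unlike amounts. They share 3 runs of 8 bases, in the windows at chr11:82114935-82115234 and chr11:82101595-82101894, both on the plus strand.
Ccl8: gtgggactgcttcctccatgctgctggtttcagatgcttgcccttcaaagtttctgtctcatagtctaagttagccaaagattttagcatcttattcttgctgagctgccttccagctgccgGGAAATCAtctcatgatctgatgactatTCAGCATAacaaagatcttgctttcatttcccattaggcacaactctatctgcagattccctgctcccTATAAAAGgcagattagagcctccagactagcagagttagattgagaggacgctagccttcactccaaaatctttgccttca
Ccl12: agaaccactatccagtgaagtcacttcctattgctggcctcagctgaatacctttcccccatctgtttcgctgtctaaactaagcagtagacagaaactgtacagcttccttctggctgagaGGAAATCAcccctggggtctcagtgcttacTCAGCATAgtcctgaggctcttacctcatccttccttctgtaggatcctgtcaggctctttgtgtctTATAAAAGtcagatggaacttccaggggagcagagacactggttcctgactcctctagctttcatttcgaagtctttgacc
The other 8 pairs of these 5 windows shared no run of that length. The aligned bases were 64.7% identical between Ccl6 and Ccl9 and 65.5% between Ccl8 and Ccl12, against 54.8% to 63.4% in the other pairs.

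The run shared by Ccl8 and Ccl12 nearest to the start site holds a TATA box (TATAAA), 32 bases before the start in Ccl8 and 31 in Ccl12. The same letters stand 92 bases before the start in Ccl9, and 13.6% of the 32851 mouse windows of this length hold them on either strand. An AP-1 motif (TGANTCA, in 7.81% of windows) and an NF-kB motif (in 8.46%) were matched in Ccl9, and a PU.1 motif (AGGAAGT, in 9.35%) in Ccl6 and Ccl12, on the reverse strand. Both strands were searched, and the motifs can overlap. No match was found in the 5 windows for the interferon-stimulated response element (GAAA, any 2 bases and GAAA, in 3.44% of windows) or the C/EBP motif (TTGCNNAA, in 10.8%), which says only that these letters are not in these windows.

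Ccl6 was the most abundant ligand. Its level per length in the air libraries was 38160 ± 3788 normalized counts per kb of exon (SD, n = 3), followed by Ccl9 at 5857 ± 452 and Ccl3 at 2742 ± 332. Ccl2 (1738 ± 165), Ccl4 (1683 ± 113) and Ccl7 (1609 ± 293) came next, and their libraries overlapped from each to the next. Ccl12 (648 ± 104), Ccl8 (130 ± 89.9) and Ccl5 (21.2 ± 13.0) closed the order, each below the one before it in every air library. In the CAP libraries Ccl7 (3425 ± 1584 normalized counts per kb) and Ccl2 (3358 ± 1712) stood ahead of Ccl3 (2712 ± 451), and Ccl9, Ccl7 and Ccl2 each overlapped the next in the order. Ccl5 (122 ± 22.2) had passed Ccl8 (44.3 ± 31.4), and those groups of libraries did not overlap.

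**Figure D1:**
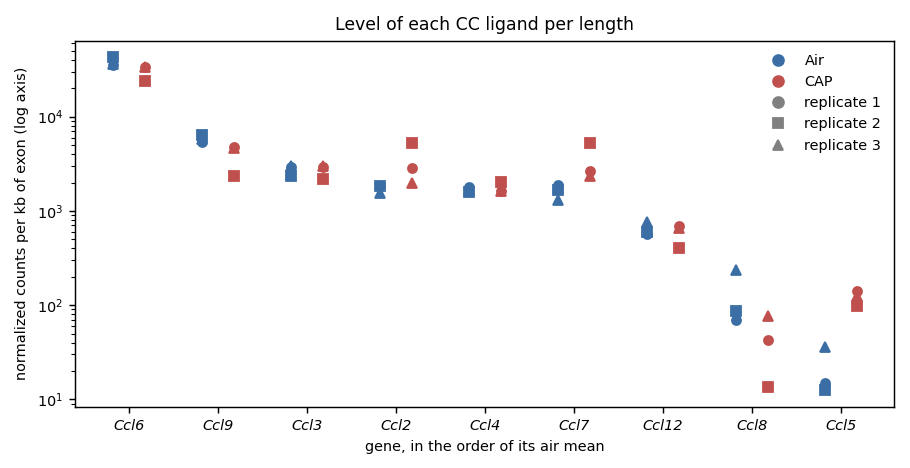
Level of each ligand in normalized counts per kb of exon, on a log axis, for every air (blue) and CAP (red) library, with a marker shape per replicate number. Ccl6 is highest in all 6 libraries, and Ccl5 is lowest in the air libraries but above Ccl8 in the CAP libraries.

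Ccl5, which attracts T cells, monocytes and eosinophils through receptors that include Ccr1 and Ccr3, had the clearest difference. Its normalized counts, that is counts divided by a size factor for each library, were 14.3, 12.1 and 34.7 after air and 137, 94.9 and 119 after CAP exposure, in the order of replicates 1, 2 and 3, which is kept below. The groups were well apart, with air replicate 3 the highest air library and CAP replicate 2 the lowest CAP library. The raw counts behind them were small, from 12 to 34 in air and from 95 to 144 in CAP, and the exact 95% Poisson intervals of the highest air library (23.6 to 47.5 counts) and the lowest CAP library (76.9 to 116) did not meet. The log2 fold change, CAP minus air, was 2.52 ± 0.43 (SE), and the edgeR quasi-likelihood test gave an adjusted p (Benjamini-Hochberg) of 0.468. It was the third lowest p of all 14792 genes, 0.000296 before adjustment in edgeR. Leaving out each library in turn gave log2 fold changes of 2.26 (without air replicate 2) to 3.14 (without air replicate 3), with adjusted p values from edgeR of 0.130 to 0.851.

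In DESeq2, where 24 of 13924 genes (0.172%) passed an adjusted p of 0.05, Ccl5 passed at 0.00257 and no other member did. Ccl5 passed there without air replicate 1 (69 genes called in all), air replicate 3 (7), CAP replicate 2 (51) or CAP replicate 3 (799). It did not without air replicate 2 (adjusted p of 0.0979 from DESeq2, 6 genes called) or CAP replicate 1 (0.111, 7 genes called). Without CAP replicate 3, Ccl2 (0.00125) and Ccl7 (0.00275) passed in DESeq2 as well, among the 799 genes called in that fit.

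Ccl2 was at 2085, 2087 and 1761 normalized counts in air and at 3219, 5999.7 and 2246 in CAP. Ccl7, which attracts monocytes through Ccr2 and other receptors, was at 1504, 1325 and 1039 in air and at 2132, 4202 and 1895 in CAP. For both genes every CAP library lay above every air library, and CAP replicate 2 was the highest by far. The log2 fold change was 0.95 ± 0.31 for Ccl2 and 1.09 ± 0.30 for Ccl7, each with an adjusted p of 0.468 from edgeR. Without CAP replicate 2 these values were 0.46 and 0.64, and the groups were still apart. The ratio of Ccl2 to Ccl7 counts within a library was 1.39, 1.58 and 1.70 in air and 1.51, 1.43 and 1.19 in CAP (p = 0.3, exact two-sided permutation test, for which 0.1 is the smallest p that 3 against 3 allow). Across the 6 libraries Ccl2 and Ccl7 were the most alike of the 36 pairs of members, with a root mean square difference of 0.16 between their log2 profiles, each centred on its own mean.

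Ccl8, which in mice attracts T cells bearing Ccr8, was at 35.7, 44.4 and 119 normalized counts in air and at 21.9, 6.99 and 39.0 in CAP. Air replicate 3 was the high library and CAP replicate 2 the low one, and the groups overlapped. The log2 fold change was -1.55 ± 0.66, with an adjusted p of 0.468 from edgeR, and it was -0.82 without air replicate 3 and -1.13 without CAP replicate 2. Air replicate 3 and CAP replicate 2 were also the highest and the lowest library for the sum of the 8 stromal markers, at 201400 and 52680 normalized counts. The median of the 7 endothelial markers had the same extremes, at 1.22 and -1.30 log2 units from the air mean. The part of these cells in the result was not tested. Ccl12, which attracts monocytes through Ccr2 and lies beside Ccl8, was at 309, 323 and 412 normalized counts in air and at 371, 216 and 352 in CAP. Its highest and lowest libraries were those of Ccl8, and its groups overlapped. The log2 fold change of -0.15 ± 0.25 was within the spread between libraries and turned to 0.05 without CAP replicate 2.

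Ccl3 and Ccl4, the macrophage inflammatory proteins, were close to level between the groups. Ccl3 was at 2222, 1808 and 2271 normalized counts in air and at 2251, 1679.5 and 2302 in CAP, with a log2 fold change of -0.02 ± 0.16. Ccl4 was at 1187, 1038 and 1107 normalized counts in air and at 1083, 1327 and 1067 in CAP, with a log2 fold change of 0.06 ± 0.14. The sign of both values turned when CAP replicate 2 was left out. The ratio of Ccl5 to Ccl3 counts, which needs no size factor, was 0.00642, 0.00670 and 0.0153 in air and 0.0610, 0.0565 and 0.0517 in CAP, and its groups were apart (p = 0.1, exact two-sided permutation test).

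Ccl6 was at 63701, 76278 and 65511 normalized counts in air and at 59841, 42855 and 60699 in CAP. Ccl9 was at 16485, 19237 and 17784 in air and at 14566, 7213 and 14315 in CAP. Every CAP library lay below every air library for both genes, and CAP replicate 2 was the lowest. The log2 fold change was -0.33 ± 0.18 for Ccl6 (adjusted p of 0.496, edgeR) and -0.57 ± 0.25 for Ccl9 (0.468), and -0.19 and -0.31 without CAP replicate 2. The ratio of Ccl6 to Ccl9 counts was 3.86, 3.97 and 3.68 in air and 4.11, 5.94 and 4.24 in CAP, so that it was higher in every CAP library (p = 0.1, exact two-sided permutation test). Of the 50-base stretches of Ccl9 exons, 3.64% also occur in other genes, against 0% for the other 8 members. The sum of the 10 macrophage markers, as given above, was lower in every CAP library too, but Lyz2 made up most of it. Without Lyz2 the other 9 summed to 139600, 167000 and 158500 in air and 151000, 100900 and 127900 in CAP, and the groups overlapped. Of the 10 genes, 1 was apart and higher (Fcgr1, an Fc receptor), where 8.44% of all genes tested had this pattern. A further 2 were apart and lower (Itgam, an integrin, and the lysozyme gene Lyz2), where 8.46% had. The part of these cells in the result was not tested. In bulk RNA, fewer cells of a kind and less RNA per cell cannot be told apart.

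**Figure D2:**
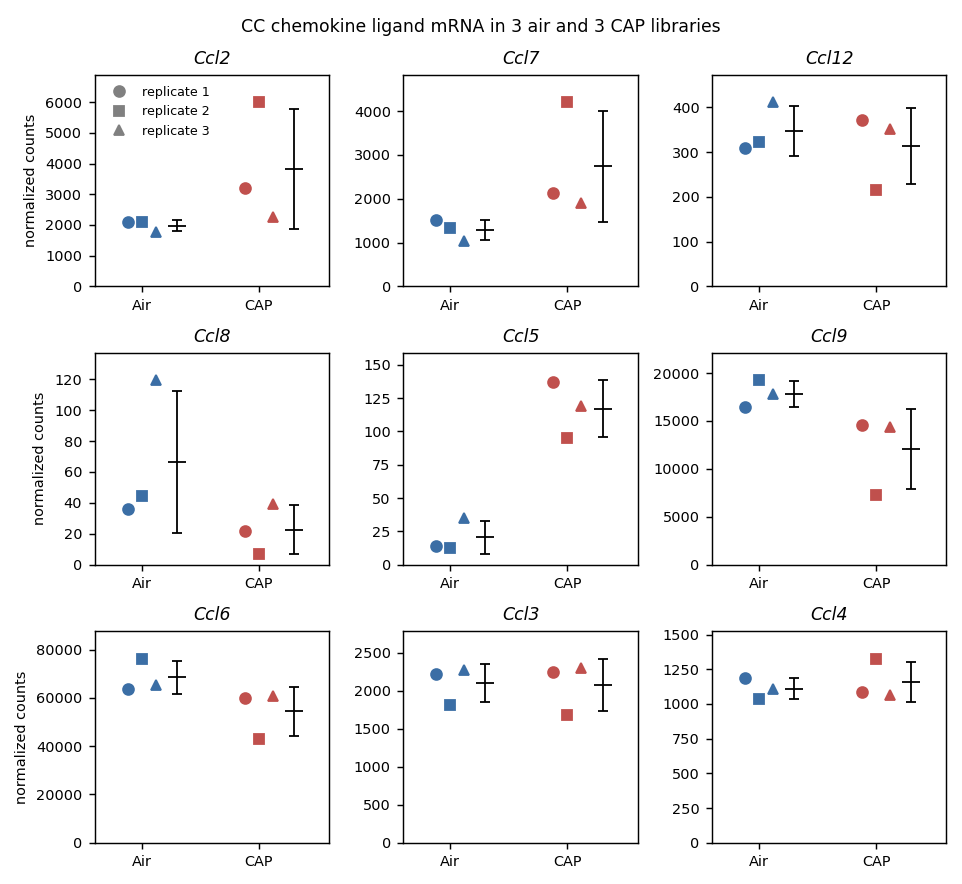
Normalized counts of the 9 ligands in each library (points, a marker shape per replicate number), with the mean and SD of each group in black and every axis starting at 0. Ccl5, Ccl2 and Ccl7 are higher and Ccl6 and Ccl9 lower in all 3 CAP libraries than in any air library. CAP replicate 2 (red square) is the highest or the lowest library for 8 of these 9 genes.

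Counted over the members, 5 of 9 had groups that did not overlap. They were 3 with CAP higher, where 8.44% of all genes tested had this pattern, and 2 with CAP lower, where 8.46% had. TMM normalization gave 5 members as well. Leaving out 1 library gave 5 or 6 members, but with 5 libraries the groups of 22.0% to 36.0% of all genes did not overlap in one direction or the other, against 16.9% with all 6; without CAP replicate 2 it was 5 members and 23.1%. Likewise 5 of 9 had an unadjusted p under 0.05 in edgeR, 3 of them higher (Ccl2, Ccl5 and Ccl7) and 2 lower (Ccl8 and Ccl9), where 10.6% of all genes had. The median log2 fold change of the 9 was -0.02, and that of all genes tested was -0.01.

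**Figure D3:**
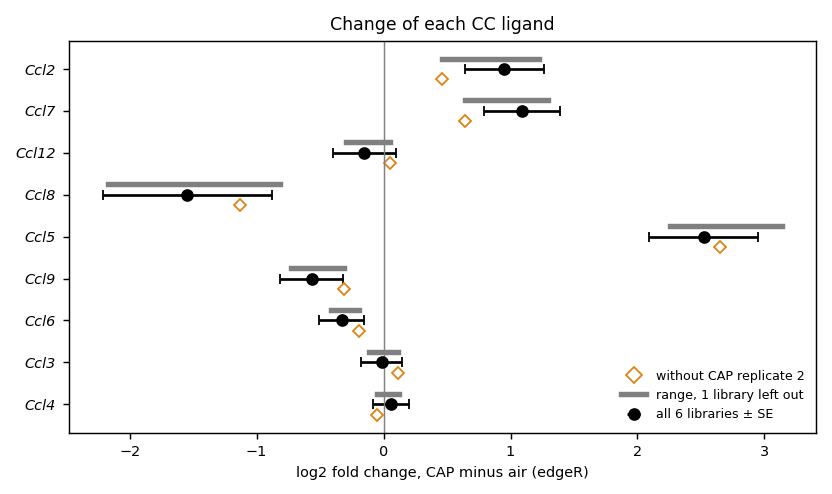
Log2 fold change of each ligand, CAP minus air, with its SE (black), its value without CAP replicate 2 (open diamonds) and its range when each library is left out in turn (grey bars). Ccl5 ranges from 2.26 to 3.14, while the values of Ccl2 and Ccl7 are lowest without CAP replicate 2, and Ccl3, Ccl4 and Ccl12 cross 0.

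Neighbours on the chromosome did not all differ in the same direction. Ccl2 and Ccl7, 10.1 kb apart at their starts, were both higher, whereas Ccl8, 79.6 kb from the start of Ccl2, was lower and Ccl12 between them was level. In the other group Ccl5, with a log2 fold change of 2.52, lies 42400 bases from Ccl9, with -0.57.

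**Figure D4:**
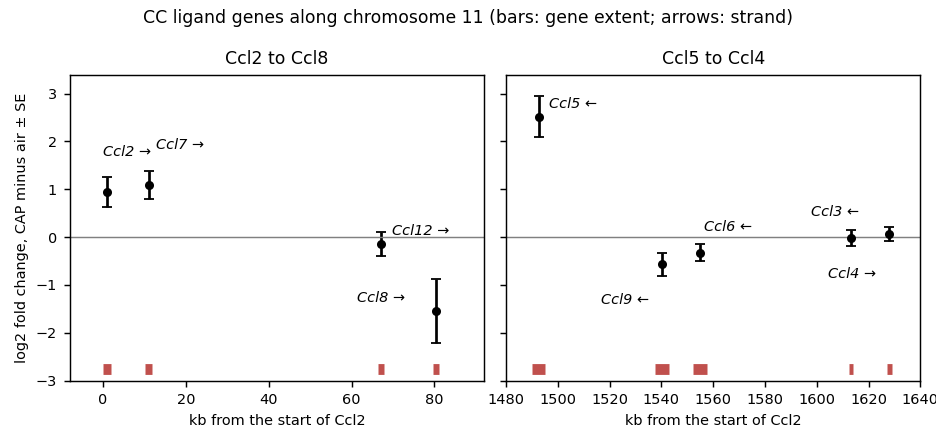
Log2 fold change, CAP minus air, with its SE, against the distance in kb from the start of Ccl2, for the genes from Ccl2 to Ccl8 (left) and from Ccl5 to Ccl4 (right). Bars at the bottom show the extent of each gene and arrows its strand. Both stretches hold genes above and below 0, and Ccl5 (2.52) and Ccl8 (-1.55) are the extremes.

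The summed counts of the family were carried by Ccl6 and Ccl9. All 9 members together took from 0.221% to 0.348% of the counts of a library and summed to 87542, 102152 and 90038 normalized counts in air and 83623, 63594 and 83033 in CAP, a log2 difference of -0.28 (p = 0.1, exact two-sided permutation test). It was -0.17 without CAP replicate 2 (p = 0.2, exact permutation test) and -0.21 without air replicate 2 (p = 0.3, exact permutation test). Without Ccl6 and Ccl9, a choice made after their values were seen, the other 7 summed to 7356, 6638 and 6744 in air and 9216, 13526 and 8019 in CAP, a log2 difference of 0.57, and of 0.31 without CAP replicate 2. Per kb of exon, Ccl6 made up 72.5% of the family in air and 65.2% in CAP on average, Ccl9 11.1% and 8.40%, Ccl2 3.31% and 7.52%, and Ccl7 3.07% and 7.66%. In CAP replicate 2 the share of Ccl6 was 57.6%, and Ccl2 and Ccl7 held 12.7% each.

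Few other CC ligands were detected. Of 14 others listed, 7 had no count in any library (Ccl1, Ccl19, Ccl20, Ccl21a, Ccl21b, Ccl21c and Ccl26), Ccl11 and Ccl22 had too few to test, and 5 were tested. Ccl24, which attracts eosinophils, was at 109, 141 and 92.8 normalized counts in air and at 59.1, 5.99 and 62.0 in CAP. Its groups were apart, with a log2 fold change of -1.42 ± 0.53 (adjusted p of 0.468, edgeR) that was -0.92 without CAP replicate 2. Ccl25, an attractant of thymocytes and gut lymphocytes, was at 163 to 204 normalized counts in air and 118 to 175 in CAP. Ccl27a ranged from 27.0 to 78.5 over the 6 libraries, and Ccl17 and Ccl28 stayed at or below 7.99.

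Of the 11 CC receptors, 5 were tested and Ccr1 was by far the most abundant. Ccr1, the receptor of Ccl3, Ccl5, Ccl6, Ccl7 and Ccl9, was at 1751, 3471 and 2157 normalized counts in air and at 2765, 1125.0 and 1970.3 in CAP. Its groups overlapped, with a log2 fold change of -0.33 ± 0.34 (adjusted p of 0.702, edgeR) that was 0.00 without air replicate 2 and -0.06 without CAP replicate 2. Ccr3, the eotaxin receptor, was at 2.04, 13.1 and 36.7 normalized counts in air and at 1.91, 5.99 and 6.00 in CAP. Ccr2, the receptor of Ccl2, was at 0, 8.08 and 15.3 in air, and its 3 CAP libraries held no count, which allows up to 3 counts in each; intervals and floors cover counting error only. Ccr10 did not pass 6.00 in any library. Ackr4, an atypical receptor that binds Ccl19, Ccl21 and Ccl25 without signalling, was at 561, 729 and 1828 normalized counts in air and at 130, 19.0 and 612 in CAP, a log2 fold change of -2.04 ± 0.84 with overlapping groups (adjusted p of 0.468, edgeR). Single libraries moved this value, to -1.35 without air replicate 3 and -3.79 without CAP replicate 3. Its highest and lowest libraries, air replicate 3 and CAP replicate 2, were those of the stromal marker sum and of the median endothelial marker. The part of these cells was not tested. Ccrl2, a chemerin-binding relative, was at 97.8 to 109 in air and 77.2 to 134 in CAP.

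Genes of the pathway around the ligands were given by list. Of the 98 tested, 0 passed an adjusted p of 0.05 in edgeR or limma-voom. In edgeR 14 had an unadjusted p under 0.05, where 10.6% of all genes had. In DESeq2 3 passed (Oas2, Oas3 and Helz2), where 0.172% of all genes did. The paper had already listed these 3 as upregulated from the same samples. The lists were chosen with such results known, so these shares are no test of the lists. Of the 13 receptor signalling genes, 5 were higher and 8 lower (4 and 9 with TMM normalization), with a median log2 fold change of -0.02. Rgs1, which shortens G protein signals, had the lowest p, at 1277, 1832 and 1104 normalized counts in air and 1577, 3092 and 1519 in CAP. Of the 12 genes of ligand processing and presentation, 6 were higher and 6 lower. Ndst1, an enzyme of heparan sulphate synthesis, was apart at 4382 to 4799 in air and 4931 to 6224 in CAP. Next by p, Srgn and Sdc1 were lower, with log2 fold changes of -1.02 ± 0.51 and -0.35 ± 0.18. Mmp12, after them, was higher, with 0.69 ± 0.37. The groups of Srgn, Sdc1 and Mmp12 overlapped, and without CAP replicate 2 the values were -0.59, -0.20 and 0.16. Among 8 tested inducers, 5 were higher and 3 lower. Il6, an inflammatory cytokine, was at 16.3, 6.06 and 5.10 normalized counts in air and at 33.4, 40.0 and 25.02 in CAP, with groups apart and a log2 fold change of 1.83 ± 0.58 (adjusted p of 0.468, edgeR). Tnf was at 38.7, 40.4 and 25.5 in air and at 43.9, 83.9 and 38.0 in CAP, and its groups overlapped.

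Of 18 transcription factor genes, 10 were higher and 8 lower, with a median of 0.01. Cebpd, a C/EBP factor, was apart and lower, at 1112, 927 and 1142 normalized counts in air and 821, 445 and 769 in CAP, and Fos, an AP-1 subunit, was apart and higher, at 270.0, 312 and 280.3 in air and 367, 445 and 334 in CAP. Irf7, a factor of interferon induction, was at 1834, 1426 and 2509 in air and at 3503, 1793 and 5042 in CAP, with overlapping groups. Of 13 inhibitors, 7 were higher and 6 lower on RLE-normalized counts (6 and 7 with TMM normalization). Zfp36, whose product binds AU-rich elements of some chemokine mRNAs and speeds their decay, had a log2 fold change of 0.57 ± 0.13 (adjusted p of 0.468, edgeR). It was at 1022, 891 and 1066 normalized counts in air and at 1581, 1454 and 1400 in CAP. Dusp1, a phosphatase that turns off MAP kinases, was at 1547, 1669 and 1620 in air and at 2594, 2397 and 2021 in CAP, a log2 fold change of 0.54 ± 0.13. For both genes every CAP library was above every air library, as for Ccl2, Ccl5 and Ccl7, and without CAP replicate 2 the log2 fold changes were 0.58 and 0.51. Next by p, Zfp36l1 and Socs3 were lower, with overlapping groups. Zfp36l1 was at 3660, 4629 and 4814 normalized counts in air and at 3099, 1482 and 3770 in CAP. The log2 fold changes were -0.65 ± 0.30 and -0.62 ± 0.30, and -0.35 for each without CAP replicate 2.

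The interferon response list held 22 genes, 21 of them higher, with a median log2 fold change of 0.60 beside -0.01 for all genes tested. The median was 0.93 without CAP replicate 2 and 0.07 without CAP replicate 3. Oas3, which senses double-stranded RNA, was at 917, 807 and 1033 normalized counts in air and at 2124, 1885 and 2073 in CAP, a log2 fold change of 1.14 ± 0.14 (adjusted p of 0.334, edgeR). Helz2, a coactivator with helicase domains, Oas2 and Oas1a followed by p, with log2 fold changes of 0.71, 0.77 and 0.60 and groups apart. Oas3, Helz2, Oas2 and Oas1a are all among the genes that the paper lists as upregulated in these samples. In CAP replicate 2 the list's median lay 0.57 log2 units below the air mean, under every air library, while Ccl5 lay 2.32 above it.

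**Figure D5:**
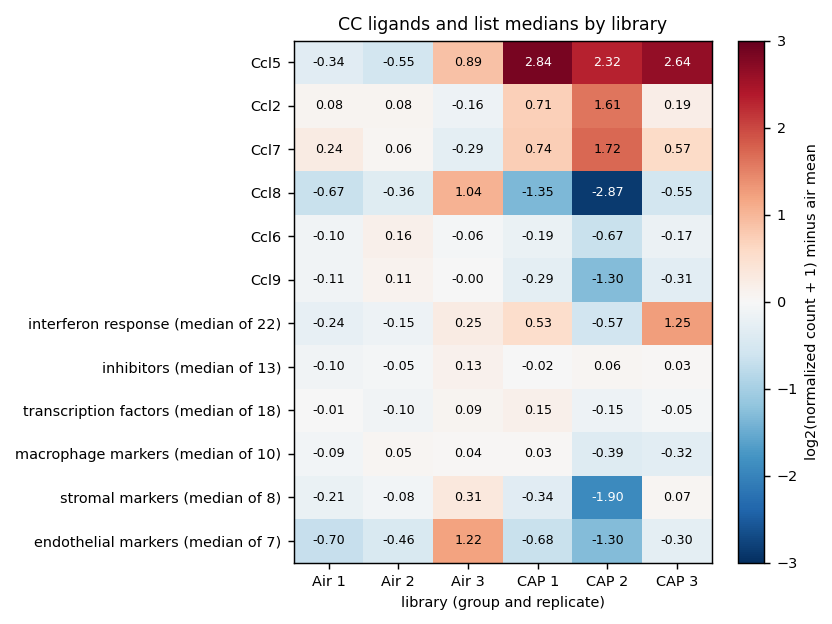
Log2(normalized count + 1) minus the air mean in each library, for 6 ligands and for the median gene of 6 lists of related genes or cell type markers. Ccl5 is above the air mean by 2.32 to 2.84 in the CAP libraries, whereas the interferon list ranges from -0.57 in CAP replicate 2 to 1.25 in CAP replicate 3.

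Among 11820 genes with a mean of at least 50 normalized counts, the 5 with a profile most like that of Ccl5 over the 6 libraries were 2200002D01Rik, Ifi213, Oas3, 3425401B19Rik and Mcpt8. The measure was the root mean square difference of centred log2 values, which was 0.77 to 0.86 for these 5. Mcpt8, a basophil protease, was at 59.1, 33.3 and 51.0 normalized counts in air and at 85.8, 223 and 140 in CAP, and higher in every CAP library. The other 3 tested genes of the same list of 8 mast cell, basophil and eosinophil markers lay the other way: Cpa3, a mast cell protease, and Prg2, an eosinophil granule protein, had log2 fold changes of -1.70 and -1.66 with overlapping groups, and Ms4a2, an IgE receptor subunit, was at 3.06, 0 and 7.14 normalized counts in air with no count in CAP. Fcer1a, Epx and Tpsb2 of that list had no count in any library. The 7 other members above that mean did not share a direction, with Ccl2 and Ccl7 higher and Ccl6 and Ccl9 lower in CAP. Their average was a nearly flat profile, which is no trait of the single members. Aco1, Sbf2, Tm9sf4, Sap130 and Atp6v0c were nearest to that average (0.02 to 0.03). T and NK cells also make Ccl5. Of 13 marker genes of these cells, 6 had no count in any library (Cd3d, Cd3g, Cd8a, Gzma, Prf1 and Ncr1), and 10 had under 10 counts in all. The list summed to 474 to 927 normalized counts in air and 503 to 767 in CAP, of which Cd4, at 465 to 903 and 492 to 741, made up nearly all.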

How the data were processed

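EPC mRNA of 3 air and 3 CAP libraries was analysed. The authors aligned the reads to mm10 with STAR 2.6 and counted them per gene with HTSeq 0.10.0; what they deposited is the table of raw counts. For the annotation release, the strand setting and multi-mapped reads, the choice made is not given in the sources used here. GENCODE vM21 (GRCm38) gave names and positions and matched 99.9% of IDs.

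Genes totalling 10 counts or more were normalized by relative log expression (RLE) and tested by quasi-likelihood in edgeR 4.0.16 (R 4.3.3), with p adjusted by Benjamini-Hochberg over all 14792 genes and a threshold of 0.05. The SE of a log2 fold change is its size over the root of F. DESeq2 1.42.0, limma-voom (limma 3.58.1), TMM, other count filters, a replicate block, and the omission of each library were alternatives; DESeq2 without each library or with a local dispersion trend, the earlier form of edgeR's test, the sum without Ccl6 and Ccl9, and the macrophage sum without Lyz2 were added after the data were seen. Each test was checked on simulated data.

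Named were all 9 members, the tested CC receptors and other CC ligands, and, in other lists, up to 4 genes of lowest p, with markers beside the results they move with and the 5 genes most like Ccl5 or the other members. The members and lists were chosen with earlier results of these data known. Between libraries of a group, edgeR's biological coefficient of variation was 26.3%. The result of 1 tested receptor is not reported here.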

Additional observations from a re-analysis of the deposited data

How the results depend on the processing

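The count of genes and of members past an adjusted p of 0.05 was 0 in edgeR under each alternative and in limma-voom, and it depended on the tool. DESeq2 called 24 genes, 1 of them a member (Ccl5). With a local dispersion trend DESeq2 called 149 genes and 2 members (Ccl5 and Ccl7), and with each library left out it called 6 (without air replicate 2) to 799 (without CAP replicate 3) genes and 0 to 3 members. It called 69 genes without air replicate 1, 7 without air replicate 3 or CAP replicate 1, and 51 without CAP replicate 2.

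Of the values of single members under all alternatives, 10 turned in sign, all of them small. The log2 fold change of Ccl3, -0.113 to 0.111 with a library left out, turned to 0.026 without air replicate 1, 0.045 without air replicate 3 and 0.111 without CAP replicate 2, in edgeR and in DESeq2 (0.0258, 0.045 and 0.111). Without CAP replicate 2, Ccl12 turned to 0.0513 (0.0512 in DESeq2) and Ccl4 to -0.052 (-0.052), within leave-one-out ranges of -0.293 to 0.0513 and -0.052 to 0.118. The cause was not tested. With the replicate number as a block, edgeR called 0 genes and 0 members, and the log2 fold change of Ccl5 was 2.53. Same-numbered deviations correlated at -0.02, 0.09 and 0.17, so the numbers were not taken as pairs. These are the numbers of the sample titles; by those of the sample descriptions a single number is shared (air replicate 3 and CAP replicate 2, correlation -0.20), which allows no block. Counts of 7 to 39 in the CAP libraries for Ccl8, and of 12 to 34 in air for Ccl5, limit the precision of those genes.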
